A study of Homo sapiens with 12 samples.

Results

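The transcripts of 10 keratinocyte interleukins and chemokines were followed in 2 established human cell lines in which nicastrin (gene NCSTN) had been knocked down with a lentivirally delivered hairpin RNA, or which carried a control hairpin. The members are the interleukin-1 family genes IL1A, IL1B, IL1RN and IL33, the interleukin IL6, the neutrophil-attracting chemokines CXCL1, CXCL2 and CXCL8 (also called IL8), and the chemokines CCL20 and CXCL14. They were chosen by gene name, with earlier results of these data known. The platform annotation gave 11 probes for these 10 genes, out of 47318 probes on the array and 12155 genes named here. All 11 were among the 18152 probes that were detected on 3 or more of the 12 arrays, detection meaning a p-value under 0.01. CXCL8 had 2 probes, ILMN_1666733 and ILMN_2184373, called probe 1 and probe 2 here, and each other member had 1.

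RNA was hybridised to 1 Illumina BeadChip array per sample, with 3 arrays in each of 4 groups. HEK001, a keratinocyte line grown in keratinocyte serum-free medium with EGF and bovine pituitary extract, carried either the NCSTN hairpin named A08 or the pLKO vector with a hairpin against luciferase. HEK293, an embryonic kidney line grown in DMEM with fetal bovine serum, carried the same 2 constructs. All 4 groups were therefore transduced, treated with polybrene at 10 µg/mL and selected with puromycin for about 2 weeks, at 2 µg/mL in HEK293 and at a labelled 0.5 in HEK001 whose unit is written incompletely. A single NCSTN hairpin was used, so an effect of nicastrin loss and an effect of that hairpin on other transcripts cannot be told apart. Titles and cell line entries gave the line, whereas the source names gave HEK001 for all 12 samples. The labels do not say that replicates were separate cultures, so a p-value here reflects how far these samples spread, and that spread may be technical.

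Keratinocytes are a source of cytokines as well as a barrier. IL1A is stored in these cells and released on damage, and IL1B is made as a precursor that caspase-1 cuts. Both signal through the interleukin-1 receptor to NF-kB, while IL1RN encodes the antagonist of that receptor. IL33 is a nuclear alarmin of the same family that binds the receptor IL1RL1 (ST2). NF-kB and AP-1 are the textbook activators of IL6, CXCL1, CXCL2, CXCL8 and CCL20. CXCL14 differs from these in being made constitutively by resting epithelium. Nicastrin is a subunit of gamma-secretase, the membrane protease that releases the Notch intracellular domain, and inherited loss of NCSTN function is known from familial hidradenitis suppurativa, an inflammatory skin disease.

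The upstream sequences of the members are shown because they carry the binding motifs for which the inducible chemokines are known, and because CXCL1, CXCL2 and IL6 fell together while CXCL14 rose. RefSeq start sites on GRCh38.p14 gave 14 windows for the 10 genes, each from 250 bases before to 50 after a start, and the 150 bases before the start are printed for 6 of them. Capitals mark a match, on either strand, to the kappaB consensus GGGRNNYYCC in the first 4 and to the AP-1 motif TGANTCA in the last 2. In these motifs R is A or G, Y is C or T, and N is any base.
IL6, chr7:22727050-22727199, plus strand: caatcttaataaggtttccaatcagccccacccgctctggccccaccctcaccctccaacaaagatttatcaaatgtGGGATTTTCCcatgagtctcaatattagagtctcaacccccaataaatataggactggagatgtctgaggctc
CXCL1, chr4:73869243-73869392, plus strand: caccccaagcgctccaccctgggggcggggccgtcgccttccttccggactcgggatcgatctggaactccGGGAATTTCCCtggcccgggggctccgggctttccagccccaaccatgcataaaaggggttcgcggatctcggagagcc
CXCL2, chr4:74099196-74099345, minus strand: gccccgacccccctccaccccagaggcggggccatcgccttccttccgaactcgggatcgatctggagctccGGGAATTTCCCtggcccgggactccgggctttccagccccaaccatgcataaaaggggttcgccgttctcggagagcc
CCL20, chr2:227813692-227813841, plus strand: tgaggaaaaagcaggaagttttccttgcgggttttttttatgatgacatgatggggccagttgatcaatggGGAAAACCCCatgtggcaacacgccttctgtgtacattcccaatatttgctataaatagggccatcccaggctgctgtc
CXCL8, chr4:73740419-73740568, plus strand: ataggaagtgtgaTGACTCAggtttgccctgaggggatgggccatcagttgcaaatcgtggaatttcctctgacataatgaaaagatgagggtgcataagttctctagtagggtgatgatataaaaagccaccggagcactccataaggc
CXCL14, chr5:135578992-135579141, minus strand: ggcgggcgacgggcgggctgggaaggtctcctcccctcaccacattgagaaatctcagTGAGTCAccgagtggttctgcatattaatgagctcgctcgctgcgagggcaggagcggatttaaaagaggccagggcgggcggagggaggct

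A kappaB match was present in 4 of the 10 members, in 4 of their 14 windows, starting at position −73 from the start site in IL6, −79 in CXCL1, −78 in CXCL2 and −79 in CCL20. Over all 35116 RefSeq windows of this length, 11.3% held such a match. In CXCL1 and CXCL2 the match read on both strands in overlapping letters. Lined up on this match without gaps, the upstream stretches of these 2 genes, both on chromosome 4, were the same at 100 of 149 positions. An inserted base shifts all letters after it, so this count can understate how alike the stretches are. An AP-1 match was present in 4 members and 5 of the 14 windows, those of IL1A overlapping, at −137 in CXCL8, −92 in CXCL14, −105 in the first window of IL1A and −223 in the first window of IL1RN. Of all windows, 7.71% held one. No window of IL1B or IL33 held either motif. CXCL8 held no match to this exact consensus, but its printed stretch holds tggaatttcc, which differs from the consensus in its first base. Looser forms of the motif were not searched. Whether a match goes with the direction of change was not tested. A match describes the sequence, and binding was not measured.

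NCSTN itself was low wherever its hairpin was labelled. On the log2 scale of normalised signal used throughout, its probe read 6.56, 7.01 and 6.86 with the hairpin and 9.95, 9.98 and 9.80 with the control in HEK001, a difference of −3.10 (SE 0.119). In HEK293 it read 7.75, 7.79 and 7.91 against 9.69, 9.85 and 9.83, a difference of −1.98 (SE 0.119). Each array detected between 14818 and 16333 probes, and replicate arrays correlated at 0.9885 to 0.9936. All 7 of the keratinocyte markers with a named probe (of 10 listed) were detected on every HEK001 array, whereas 1 and 0 of them were detected on all HEK293 arrays with the NCSTN and the control hairpin. In HEK001 none of the 2 named fibroblast markers (COL1A1 and LUM) and 2 named melanocyte markers (MITF and PMEL) was detected on all arrays of a group, and 3 of 5 named leukocyte genes (CD68, HLA-DRA and ITGB2) were detected. Of the same 5 leukocyte genes, 4 (these and CD14) were detected on all arrays of both HEK293 groups. Their detection is therefore not read as a sign of leukocytes. In bulk RNA, fewer cells of a type and less RNA per cell cannot be told apart.

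**Figure D1:**
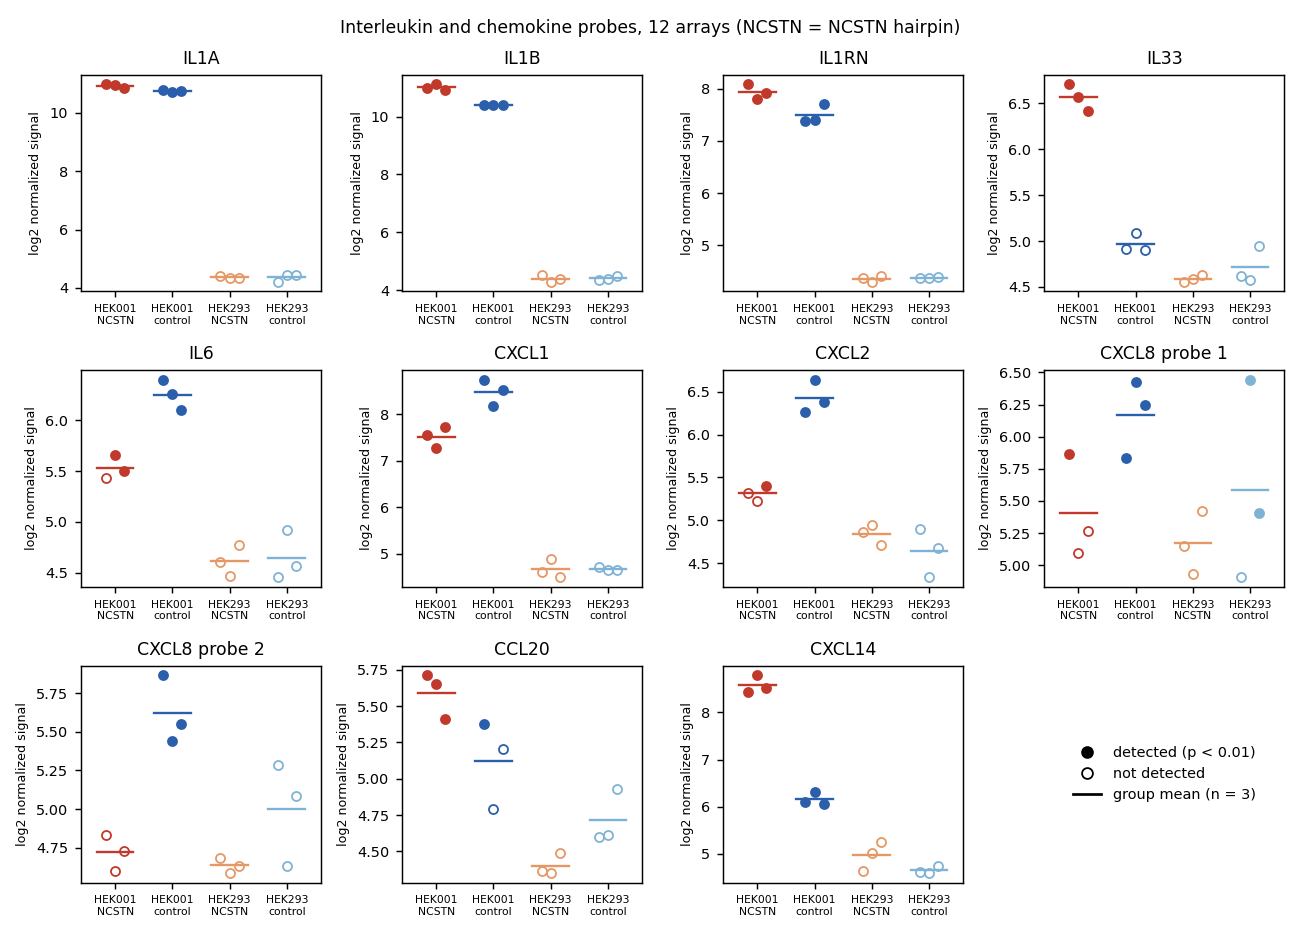
Normalised signal (log2, vertical axes) of the 11 member probes on each of the 12 arrays, with NCSTN marking the NCSTN hairpin. Filled points are detected (p under 0.01), open points are not, and lines are means of 3 arrays; CXCL14 and IL33 stand higher and IL6, CXCL1 and CXCL2 lower with the NCSTN hairpin in HEK001, and the HEK293 points are open except for 2 CXCL8 arrays.

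In HEK001 the NCSTN hairpin divided the members into a group that rose and a group that fell. CXCL14, IL33, IL1B and IL1RN were higher, with CXCL14 5.36-fold up, and IL6, CXCL1, CXCL2 and CXCL8 by its probe 2 were lower. IL1A, CCL20 and CXCL8 probe 1 did not pass the test. With limma's moderated test and Benjamini-Hochberg adjustment over all 18152 probes, 8 of the 11 member probes were called at an adjusted p under 0.05, 4 higher and 4 lower, against 12.3% of all probes tested (6.34% higher and 5.99% lower). IL33, IL6, CXCL2 and CXCL8 probe 2 were detected on all 3 arrays of the higher group alone and were kept through it, so their calls are a description and the members' count is not read as an excess over that share. Under median scaling of the arrays in place of quantile normalisation the split was 2 higher and 5 lower, because IL1B and IL1RN no longer passed and CXCL8 probe 1 then did. The authors' deposited log2 values gave 2 higher and 2 lower. For 10 of the 11 probes the 3 arrays of one hairpin did not overlap the 3 of the other, against 32% of all probes. The median absolute difference was 0.76 over the members and 0.17 over all probes. Since the members were chosen with earlier results known, these contrasts are descriptions.

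Among the interleukin-1 agonists, IL1B rose and IL1A did not pass the test. IL1B read 10.99, 11.11 and 10.92 with the NCSTN hairpin and 10.40, 10.41 and 10.40 with the control. Every knockdown array stood above every control array, and the control arrays were nearly equal. The difference was 0.61 (SE 0.095, adjusted p = 0.00151), a 1.52-fold rise. It passed in 14 of 16 alternative analyses, and did not pass with median scaling (0.53, adjusted p = 0.177) or with the authors' deposited log2 values (0.61, adjusted p = 0.21).

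IL1A, the agonist that keratinocytes hold ready in the cytoplasm, read 10.98, 10.96 and 10.87 with the NCSTN hairpin against 10.79, 10.73 and 10.75. The groups did not overlap, but the gap was small. The difference of 0.18 (SE 0.0938, 95% interval −0.02 to 0.38) had an adjusted p of 0.245 and passed in 0 of 16 alternatives. IL1A and IL1B are adjacent coding genes on chromosome 2. Whether their responses differ from each other was not tested.

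IL1RN, which encodes the receptor antagonist, read 8.08, 7.81 and 7.92 with the NCSTN hairpin and 7.38, 7.41 and 7.71 with the control. Control replicate 3 lay closest to the knockdown arrays without overlapping them. The rise of 0.44 (SE 0.109, adjusted p = 0.0204, 1.36-fold) was the least stable of the members' calls. It did not pass in 7 of 16 alternatives, among them the fits without knockdown replicate 1 (0.37, adjusted p = 0.0777), without control replicate 1 (0.38, adjusted p = 0.0764) and without control replicate 2 (0.40, adjusted p = 0.0751).

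IL33 changed from undetected to detected. It read 6.70, 6.57 and 6.41 with the NCSTN hairpin, and 4.91, 5.09 and 4.90 with the control, where none of the 3 arrays detected it. The lowest detected signal on an array lay between 5.27 and 5.50, so the control values give a bound. Here and below, "at least" marks such a bound. It was taken between group means, with a constant of 16 added before the log, and leaves out sampling error. IL33 was at least 2.24-fold higher (adjusted p = 9.08e-06), with a fitted difference of 1.60 (SE 0.119). It passed in all 16 alternatives run. The deposited signals behind it were 62.5 to 93.7 intensity units against 10.8 to 17.0.

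IL6, the cytokine that signals through the receptor subunit IL6ST (gp130), fell. Its probe read 5.43, 5.66 and 5.50 with the NCSTN hairpin and 6.40, 6.25 and 6.10 with the control. Knockdown replicate 1 did not detect it, and the groups did not overlap. IL6 was at least 1.64-fold lower (fitted difference −0.72, SE 0.136, adjusted p = 0.00463). With the authors' deposited log2 values the fall of 0.64 did not pass (adjusted p = 0.115).

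The chemokines CXCL1 and CXCL2, ligands of the neutrophil receptor CXCR2, fell together. CXCL1 read 7.55, 7.29 and 7.73 with the NCSTN hairpin and 8.74, 8.18 and 8.53 with the control. All 6 arrays detected it and the groups did not overlap. The difference of −0.96 (SE 0.157, adjusted p = 0.00203) was a 1.94-fold fall and passed in all 16 alternatives, which ranged from −1.11 to −0.83. HEK001 control replicate 1, the brightest array of that line before normalisation, gave the highest deposited CXCL1 signal (608 intensity units).

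CXCL2 read 5.32, 5.23 and 5.41 with the NCSTN hairpin, where replicate 3 alone detected it, and 6.26, 6.64 and 6.38 with the control. It was at least 2.01-fold lower (fitted difference −1.11, SE 0.144, adjusted p = 0.000485). The authors' deposited log2 values gave −0.98 and an adjusted p of 0.0594. CXCL1 and CXCL2 are close paralogs, and whether either probe also reads the other transcript or that of CXCL3 was not tested.

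CXCL8, the chemokine that binds both CXCR1 and CXCR2, gave different calls from its 2 probes. Probe 1 read 5.87, 5.10 and 5.26 with the NCSTN hairpin and 5.83, 6.42 and 6.24 with the control. Knockdown replicate 1 lay above control replicate 1, so the groups overlapped. The fitted difference of −0.76 had a wide error (SE 0.324, adjusted p = 0.152), and passed in 1 of 16 alternatives, median scaling (−0.77, adjusted p = 0.0368).

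Probe 2 read 4.83, 4.60 and 4.73 with the NCSTN hairpin, detected on none of the 3 arrays, and 5.86, 5.44 and 5.55 with the control. Here the groups were apart. CXCL8 by this probe was at least 1.15-fold lower (fitted difference −0.90, SE 0.158, adjusted p = 0.00309), and it passed in all 15 alternatives that held it. Both probes were dim, and probe 1 was averaged over 9 to 19 beads on the knockdown arrays, against a median of 22 beads per probe and array.

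CCL20, which attracts CCR6-bearing dendritic cells and T cells, did not pass the test. It read 5.71, 5.65 and 5.41 with the NCSTN hairpin and 5.37, 4.79 and 5.21 with the control, where replicate 1 alone detected it. Knockdown replicate 3 and control replicate 1 almost met. The fitted difference was 0.46 (SE 0.151, 95% interval 0.14 to 0.79, adjusted p = 0.063), with a bound of 1.14-fold. Without control replicate 1 it was 0.59 (adjusted p = 0.0389), and it also passed without background correction (0.66, adjusted p = 0.0245) and with 1 probe per gene (0.46, adjusted p = 0.0488).

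CXCL14 had the largest change of the members. It read 8.44, 8.78 and 8.52 with the NCSTN hairpin and 6.10, 6.32 and 6.05 with the control, and all 6 arrays detected it. The groups stood over 2 log2 units apart at their nearest arrays. The difference of 2.42 (SE 0.151, 95% interval 2.09 to 2.75, adjusted p = 3.02e-06) ranked at 2 among the rises of 18152 probes. It passed in all 16 alternatives, which ranged from 1.98 to 2.72. Deposited signals were 312 to 501 intensity units against 42.0 to 71.7.

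The fitted size of the dim members depended on the constant added before the log. With an offset of 50 in place of 16, the differences shrank to 0.98 for IL33, −0.46 for IL6, −0.70 for CXCL2, −0.46 for both CXCL8 probes and 0.25 for CCL20, while the calls stayed as reported for each of them. The folds given as bounds depend on this constant too, and were taken at 16 only. CCL20 was also smaller without control replicate 2 (0.30, adjusted p = 0.219), and IL1A was 0.11 under median scaling (adjusted p = 0.906).

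**Figure D2:**
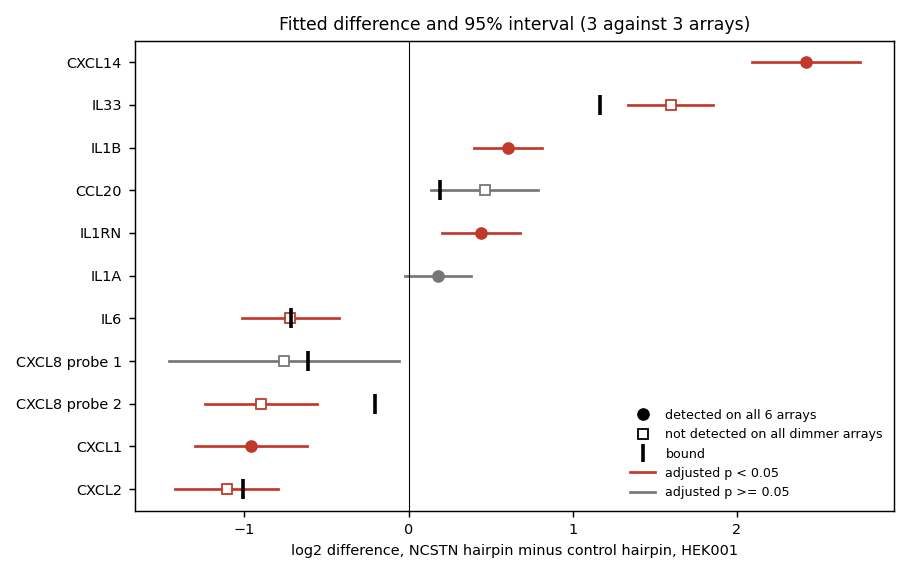
Fitted log2 difference (horizontal axis) between the NCSTN hairpin and the control hairpin in HEK001 for each member probe, 3 against 3 arrays, with 95% intervals. Black ticks mark the bound for probes not detected on all arrays of the dimmer group; CXCL14 lies highest at 2.42 and CXCL2 lowest at −1.11.

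Markers of cell identity moved in the same comparison, and their part in these results was not tested. Of the 7 keratinocyte markers, 5 rose by at least 1 probe with the NCSTN hairpin in HEK001, beside 6.34% of all probes called higher. The 5 included the basal keratin KRT15 by 1.37 (adjusted p = 2.91e-05) and the desmosomal cadherin DSG3 by 0.84 (adjusted p = 0.00141). ITGB4 passed on 1 probe (0.60, adjusted p = 0.00908) and not on another (0.38, adjusted p = 0.0933). KRT14 (0.28, adjusted p = 0.154) and LAMB3 (0.49 and 0.09 on its probes, adjusted p = 0.071 and 0.765) did not pass. The summed signal of the 7 ran from 42458 to 48841 intensity units with the NCSTN hairpin and from 32499 to 46027 with the control. Such sums use deposited signals that were not normalised between arrays, so their ranges also carry array brightness. The 5 leukocyte genes summed to 1037 to 1385 and to 843 to 1530, with CD68 higher by 1 probe (0.52, adjusted p = 0.0327) and not past the test by another (0.30, adjusted p = 0.222), HLA-DRA lower by 1 of its probes (−0.52, adjusted p = 0.0246), and LYZ and CD14 not detected on all arrays of either group. Of the 6 genes listed as typical of HEK293, VIM fell in HEK001 by both its probes (−0.34 and −0.52), and the fitted call for CDH2 rests on a probe that was not detected on all arrays of either group. VIM and SALL4 did not mark HEK293 in these data, since VIM was lower there than in HEK001 control cells (−0.28 and −0.31) and SALL4 was detected on no HEK293 array.

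**Figure D3:**
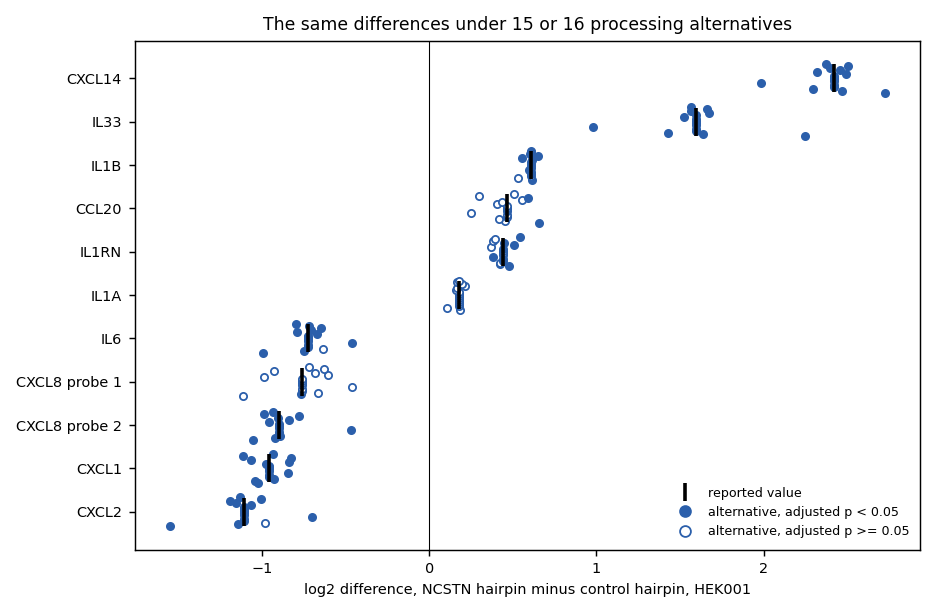
Log2 difference (horizontal axis) between the NCSTN hairpin and the control hairpin in HEK001 for each member probe, as reported (black tick) and under 15 or 16 alternative analyses (points, filled where the adjusted p is under 0.05). Every point lies on the same side of 0 as its reported value. Changes to the filter, probes per gene, moderation, pairing or the restriction to the arrays compared could not move the difference. All points of CXCL14, IL33, CXCL1 and CXCL8 probe 2 are filled, and none of IL1A is.

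The genes around these members were examined in lists chosen by function, and most did not pass. Over all probes, 12.3% were called in HEK001 (6.34% higher and 5.99% lower). The counts of called genes in these lists are small and are not read against that share. Of 6 kept genes of the interleukin-1 family and its receptors, 0 were called in HEK001 (median difference −0.03, against −0.01 over all probes), and 3 had an unadjusted p under 0.05. They were the caspase CASP1, which cuts pro-IL1B (0.29 and 0.16 by 2 probes, adjusted p = 0.144 and 0.288), IL18R1 (−0.34, adjusted p = 0.0763) and the co-receptor IL1RAP, whose probes disagreed (0.59, adjusted p = 0.056, and −0.13, adjusted p = 0.525). IL1RL1, the receptor of IL33, differed by −0.16 (adjusted p = 0.33) on its brighter probe.

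IL6ST, the signal-transducing receptor subunit for IL6 and its relatives, fell in both lines. In HEK001 it read 7.03, 7.08 and 7.30 with the NCSTN hairpin against 8.53, 8.49 and 8.23, a difference of −1.28 (SE 0.108, adjusted p = 2.56e-05). In HEK293 it read 6.26, 6.33 and 6.37 against 7.69, 7.57 and 7.58, a difference of −1.29 (SE 0.108, adjusted p = 6.37e-06). The 2 effects differed by −0.01 (95% interval −0.35 to 0.32). Its named probe is annotated to a transcript outside RefSeq, so which IL6ST isoform it reads is not settled here. In the same list of 6 kept genes, 1 rose in HEK001. That gene, STAT3, the transcription factor downstream of IL6ST, was 0.47 higher (adjusted p = 0.023) on 1 probe, and 0.44 (adjusted p = 0.0621) and 0.03 (adjusted p = 0.943) on the other two. The STAT3 call did not pass in 6 alternatives, median scaling and 4 single-array omissions among them (without knockdown replicates 1 or 3, or control replicates 2 or 3).

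Of 3 other chemokines that were kept, 1 fell in HEK001. This was CXCL5, another CXCR2 ligand on chromosome 4, which read 8.18, 8.56 and 8.39 with the NCSTN hairpin against 9.09, 8.92 and 9.00. The groups did not overlap, and the difference was −0.62 (SE 0.118, adjusted p = 0.00481), with −0.52 (adjusted p = 0.00775) on a second probe. Its upstream window held a kappaB match at −91. With the authors' deposited log2 values the adjusted p was 0.0506.

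Of 3 kept chemokine receptors, the scavenging receptor ACKR3 rose by 0.71 (SE 0.107, adjusted p = 0.00117) and 2 did not pass. Of 5 other epithelial cytokines, the interleukin-10 family member IL24 rose by 0.57 (SE 0.118, adjusted p = 0.00809) on 1 probe and by 0.21 on its brighter one, which did not pass (adjusted p = 0.217). ACKR3 and IL24 both lost their calls under median scaling (adjusted p = 0.0735 and 0.155) and with the authors' values (adjusted p = 0.249 and 0.13).

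In the interleukin-1 and NF-kB signalling list, 1 of 20 kept genes rose and 1 fell in HEK001, with a list median of 0.01. Of all probes, 6.34% were called higher and 5.99% lower. These are shares of probes, and counts of genes this small show neither an excess nor its absence. ZC3H12A, the endonuclease that degrades IL6 and other cytokine transcripts, read 7.63, 7.77 and 8.21 with the NCSTN hairpin against 7.14, 7.12 and 7.32, a rise of 0.67 (SE 0.142, adjusted p = 0.0086). NFKBIB, an inhibitor that holds NF-kB in the cytoplasm, read 7.13, 7.05 and 7.01 against 7.68, 7.56 and 7.63, a fall of 0.56 (adjusted p = 0.0143), with −0.28 (adjusted p = 0.219) on a second probe. Under median scaling neither passed (adjusted p = 0.0618 and 0.0967), and NFKBIB also missed without control replicate 1 (adjusted p = 0.0508). The NF-kB subunits RELA (0.02) and NFKB1 (−0.26) did not pass, nor did the feedback inhibitors NFKBIA (0.22) and TNFAIP3 (−0.22). The subunit RELB (0.43, adjusted p = 0.0528) fell just short. So did TRAF6 by 1 probe (−0.37, adjusted p = 0.0512), with −0.10 (adjusted p = 0.66) on a second. In the limma fit 7 of the 20 genes, ZC3H12A and NFKBIB among them, had an unadjusted p under 0.05.

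**Figure D4:**
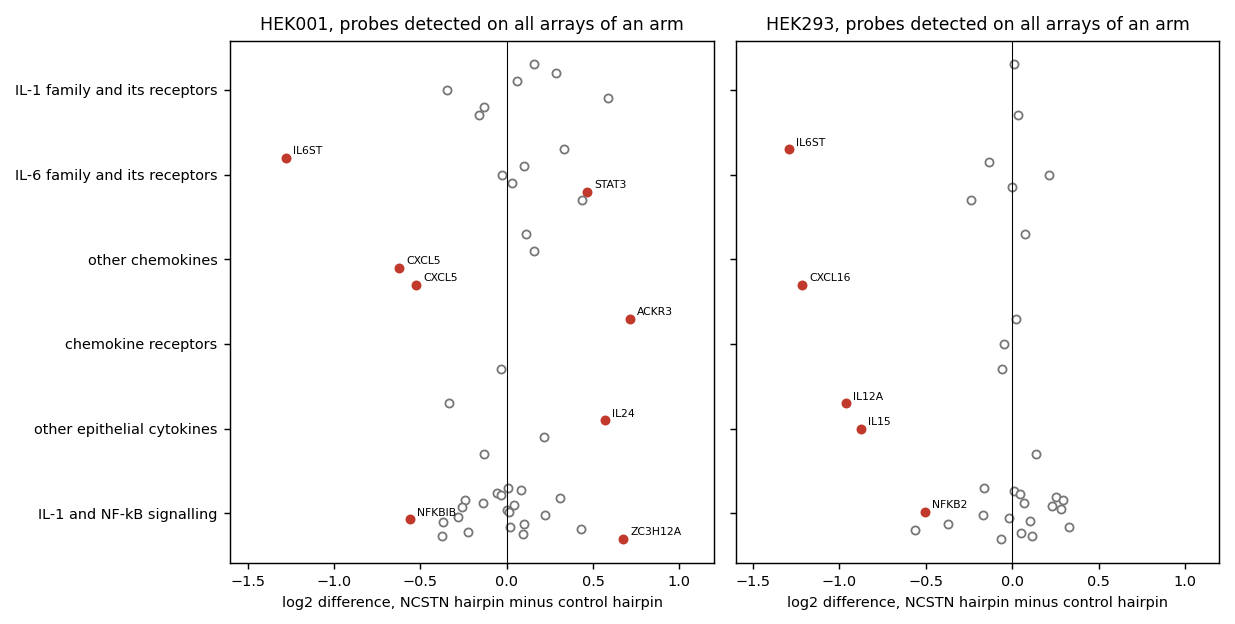
Fitted log2 difference (horizontal axes) between the NCSTN hairpin and the control hairpin for probes of the 6 surrounding gene lists, in HEK001 (left) and HEK293 (right), restricted to probes detected on all arrays of at least 1 hairpin group. Filled and named points have an adjusted p under 0.05; IL6ST lies near −1.3 in both panels, and the other named genes are not the same in the 2 panels.

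In HEK293 the members could not be compared. No member probe was detected on all 3 arrays of either hairpin group. CXCL8 probe 1 was detected on 2 control arrays, at 6.44 and 5.41, and read 4.91 on the other. Apart from those arrays, all readings of the 11 probes in HEK293 lay between 4.21 and 5.42, under the lowest detected signal of their array. The limma fit over all probes called 0 of 11, against 20.5% of all probes, with 1 at an unadjusted p under 0.05 (CXCL8 probe 2, unadjusted p = 0.0392 in the limma fit). For 1 probe, CCL20, the groups did not overlap, against 36.4% of all probes. Because of this, whether the hairpin effect on the members differed between the lines could not be read for any of them, against 19.4% of all probes called in that comparison. The fit itself called 7 of the 11, all set against undetected or partly detected HEK293 readings, and these calls are not read.

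Other genes of the lists were detected in HEK293 and changed there. CXCL16, the membrane-bound chemokine that binds CXCR6, read 7.93, 8.09 and 7.93 with the NCSTN hairpin against 9.26, 9.34 and 9.01, a fall of 1.22 (SE 0.128, adjusted p = 3.73e-05). In HEK001 it differed by 0.16 (adjusted p = 0.466). IL12A, the p35 chain of interleukin-12, fell by 0.96 (adjusted p = 0.00245), IL15 was at least 1.32-fold lower (adjusted p = 0.000321) and NFKB2 at least 1.23-fold lower by 1 probe (adjusted p = 0.0106), while its other probe did not pass (−0.37, adjusted p = 0.195). The probes of IL15 and NFKB2 that passed were detected on all control arrays and on 0 of 3 knockdown arrays. NFKB2 did not pass under median scaling (adjusted p = 0.129). No gene of these 6 lists rose in HEK293, and 0 of the interleukin-1 family and 0 of the chemokine receptors had an unadjusted p under 0.05 there. Over all probes, 20.5% were called in HEK293 in either direction.

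Between the control cells, IL1A, IL1B, IL1RN, IL6, CXCL1, CXCL2, CXCL14 and CXCL8 by its probe 2 were higher in the keratinocyte line. These were 8 of the 9 probes detected on all HEK001 control arrays. Of all probes, 31.2% were called higher in HEK001 and 67.9% in either direction, but the 9 were picked for their detection in HEK001, so nothing is read from that contrast. Since HEK293 was below detection for these 8, the folds are bounds. IL1A was at least 42.5-fold and IL1B at least 33.2-fold higher in HEK001, followed by CXCL1 (at least 8.78-fold), IL1RN (4.44), CXCL2 (2.11), IL6 (1.87), CXCL14 (1.75) and CXCL8 probe 2 (1.21). For 8 member probes the arrays of the lines did not overlap, against 70.7% of all probes. CXCL8 probe 1 did not pass (bound 1.35-fold, adjusted p = 0.128), and without HEK293 control replicate 2, the array at 6.44, it did (−1.01, adjusted p = 0.00342). IL33 and CCL20 were not detected on all arrays of either control group. The limma fit called CCL20 lower in HEK293 (−0.41, adjusted p = 0.0276) and did not call IL33 (adjusted p = 0.0754). The CCL20 call is not read. The lines differ in tissue of origin, medium and puromycin dose together, which cannot be told apart.

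Across the 4 groups, 6 members (IL1A, IL1B, IL1RN, IL33, CCL20 and CXCL14) were highest in HEK001 with the NCSTN hairpin, and IL6, CXCL1, CXCL2 and CXCL8 in HEK001 with the control. For IL1A, CCL20 and CXCL8 probe 1 the 2 HEK001 groups did not differ past the test. The HEK293 groups came last for 9 of the 11 probes, in undetected readings that have no order. For both CXCL8 probes the HEK293 control group stood between the 2 HEK001 groups, on readings that were partly or wholly undetected.

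Over the 6 HEK001 arrays, the profiles most like those of the fully detected members were sought among 8698 named genes by Pearson correlation. CXCL14 ran closest to SP110 (r = 0.9987, itself 1.05 higher with the NCSTN hairpin) and C1orf116 (0.9977). IL1B ran closest to ALDH4A1 (0.9992) and to FOLR3 (0.9991), which was 1.56 higher. The closest genes were TSPAN6 (0.996) and SGTA (0.9952) for CXCL1, FASTK (0.9925) and the cytokine receptor gene IL27RA (0.9908) for IL1RN, and NPTN (0.9949) and NRSN2 (0.9943) for IL1A. These arrays share the hairpin contrast, so any gene that differs between the hairpins correlates in this way, and the values are descriptions.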

How the data were processed

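Gene expression was measured on 12 arrays, 3 in each of 4 groups taken from the sample titles. The authors' deposited scanner table gives, per the file headers, 4 columns per array, namely the average signal of a probe, its detection p-value, its number of beads and the standard error over beads. The deposited signal is a linear intensity with background subtracted, not normalised between arrays, since 27.07% to 29.12% of values lie below 0. A further table of 21270 probes, in log2 units and deposited by the authors, has columns with a shared median and served as an alternative. Its pseudocount and normalisation are not given in the sources used here. GenomeStudio 2010 and R 3.0.2 are named in the submitters' processing notes, with no step assigned.

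Here signals were background-corrected by normexp from the detection p-values, offset by 16, quantile normalised and log2 transformed with neqc of limma 3.58.1 in R 4.3.3. A mean per group was fitted to all 12 arrays with lmFit and eBayes (12.57 total degrees of freedom) over 18152 probes, and p-values were adjusted by Benjamini-Hochberg over all of them. Adjusted p-values in the text come from this limma fit or its alternatives. Where a probe was not detected on all 3 arrays of the dimmer group, a fold is a bound, taken on each dim array against the lowest value of any detected probe, or against the probe's own value where that was higher. A bound compares group means at the offset of 16 and leaves out sampling error. Differences between lines were read only where a probe was detected on all arrays of a group in each line. The number of arrays limits the precision.

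The members and the lists of surrounding genes and markers were chosen with earlier results of these data known. The text names every member, every list gene called in a hairpin comparison (up to 4 per list and line), and the 2 most similar genes of each member detected on all HEK001 arrays. Genes named beyond this were chosen after their values were seen. The platform annotation named a single gene for 16040 probes and several for 3, and the 31275 others stayed in the fit unnamed. Listed genes without a named probe were not analysed here. Promoter windows came from RefSeq GRCh38.p14. The fit was tested on simulated data. Alternatives changed the background correction, scaling, filter, offset, probes per gene, arrays fitted, moderation, pairing and single arrays.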

Additional observations from a re-analysis of the deposited data

Results flagged for a closer look

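Among NCSTN, the members and the genes of the lists, a test of the difference itself found a different hairpin effect in the 2 lines for the genes that follow. Differences are the log2 effect in HEK293 minus that in HEK001, and adjusted p-values come from the limma fit over all probes. Of all probes, 19.4% were called in this comparison. For CXCL16 the difference was −1.38 (SE 0.18, adjusted p = 0.000353), from −1.22 in HEK293 and 0.16 in HEK001. Its 3 knockdown arrays stood below the 3 control arrays in HEK293, and the arrays overlapped in HEK001. For NFKBIB it was 0.66 by 1 probe (SE 0.184, adjusted p = 0.0248), from 0.10 in HEK293 and −0.56 in HEK001, and 0.26 by its other probe (SE 0.197, adjusted p = 0.393), which did not pass. NFKB1 differed by 0.54 (adjusted p = 0.0253), from 0.28 in HEK293 (adjusted p = 0.0801) and −0.26 in HEK001 (adjusted p = 0.14). Neither of these effects passed within its line. STAT3 differed by −0.67 on 1 probe (adjusted p = 0.0319), while 2 others, at −0.46 (adjusted p = 0.0714) and 0.18 (adjusted p = 0.646), did not pass. CD68 differed by 0.62 on 1 probe (adjusted p = 0.048) and not on its other (−0.04, adjusted p = 0.905). LAMB3 differed by 1.03 (adjusted p = 0.00725), from 1.12 in HEK293 and 0.09 in HEK001, on the 1 probe that could be read in both lines. In HEK293 that probe was detected on 0 of 3 control arrays. Its rise of 1.12 is therefore set against undetected readings, with a bound of 1.46-fold, and the size of the difference is uncertain. VIM differed by 2.12 (adjusted p = 1.92e-06) and 2.42 (adjusted p = 1.29e-06) on its 2 probes, which rose in HEK293 and fell in HEK001. NCSTN differed by 1.12 (SE 0.169, adjusted p = 0.000819), with the larger fall in HEK001. None of the 10 members could be compared in this way, since no member probe was detected on all arrays of a HEK293 group.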

How the results depend on the processing

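Over 34 results for single genes, 539 alternative values all kept the sign of the reported value. Alternatives that changed only the filter, probes per gene, moderation, pairing or the restriction to the arrays compared left the fitted difference as it was. Their signs could not change, so the 539 are not read as independent support. The list genes among these results were also chosen because they passed. The count of member probes called in HEK001 was 8 as reported, 4 with the authors' deposited log2 values (2 higher and 2 lower), 7 with median scaling, 9 without normexp, and 7 to 8 when single arrays were left out. With single arrays left out it was 8 to 9 between the control lines. In HEK293 and for the difference between lines no member probe met the detection rule, which the alternatives kept as it was, so the count of 0 there is fixed and shows nothing. With the replicate number as a block it was 8 in HEK001 and 8 between the control lines. Same-numbered arrays did not deviate together (r from −0.0371 to 0.0698 over all kept probes, 2 of 6 best with their own number), so the block is not read as a pairing. Calls over all probes in HEK001 fell from 2239 to 664 with median scaling, to 1473 without control replicate 2 and to 1388 without control replicate 3. Median scaling gave 1141 in place of 3728 in HEK293 and 1021 in place of 3520 for the difference. The cause was not tested. Between the control lines 1 probe per gene gave 8046 calls in place of 12332, over fewer features. The slide alternative was not run, because the headers give no slide. Signals near background limit IL33, IL6, CXCL2, CXCL8 and CCL20 to bounds in HEK001 and leave all members unread in HEK293.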

Other observations

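In the control cells, surrounding genes of the same network also differed between the lines, beside 67.9% of all probes called in that comparison. CASP1, the caspase that matures IL1B and IL18, was at least 8.35-fold higher in HEK001 by 1 probe and at least 8.64-fold by the other (limma adjusted p = 3.86e-13 and 8.5e-12). IL1RAP, the co-receptor of the interleukin-1 family, was at least 1.32-fold and 1.42-fold higher in HEK001 by its 2 probes, and IL1RL1 at least 1.55-fold on its brighter probe. IL18 went the other way and was 0.84 higher in HEK293 (SE 0.107, adjusted p = 1.3e-05). In the interleukin-1 and NF-kB signalling list 5 of 20 kept genes were higher in HEK293 and 8 were lower.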
